A study of Mus musculus and synthetic construct with 21 samples.

Results

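At 299 genomic sites the reporter element with an altered PPARγ motif was more active than the element with the native motif, by at least 0.75 on a log2 scale. PPARγ is the nuclear receptor that drives fat cell differentiation. Together with its partner receptor RXR it recognises DR1 motifs, direct repeats of the half-site AGGTCA separated by a single base. Ligand-bound PPARγ recruits coactivators, while nuclear receptors without an activating ligand can recruit corepressors, and DR1 motifs are also bound by other nuclear receptors such as HNF4 and COUP-TF. A DR1 motif in fat cells is usually studied as an activating element, and at the sites described here the element with the altered motif gave more reporter RNA.

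The elements were designed for a massively parallel reporter assay (MPRA), in which each plasmid carries an element and a transcribed barcode, and RNA barcode counts are set against plasmid barcode counts. The cells were 3T3-L1, a mouse preadipocyte line that becomes fat-storing in culture. The medium held dexamethasone (1 µM), insulin (1.7 µM) and IBMX (0.5 mM), the hormonal cocktail that starts this change, and the cells were collected 16 h after transfection. Pools 1 and 3 each had 1 RNA library from cells and 1 plasmid library, and pool 1 also had 1 PPARγ ChIP library and 1 input library. All elements were plasmids in the same line, so chromatin at the genomic site was not part of the assay, and with no replicate cultures the spreads below are over barcodes of 1 library pair.

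Each site number had 2 forms, in 2 classes named w and c. The element names do not spell out these letters: the form marked d is read here as the altered motif and the form marked t as the native one, and the sign of each native minus altered value of pool 1 and pool 3 rests on that reading. In pool 1 the w and c sites of the same number lay at different genomic places and carried the same 16-base motif sequence. Activity was the median over barcodes of log2 RNA over plasmid counts, scaled to library totals with a pseudocount of 1, over barcodes with at least 20 plasmid counts. The 299 sites were chosen on that value itself, as native minus altered activity of -0.75 or less with at least 5 barcodes in each form. They were taken from 4068 sites so measured, out of 4500 in both pools. The activity difference in pools 1 and 3 is therefore described without a test, and binding, the partner site with the same motif, and other pools hold the independent measurements.

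Pool 1 contributed 25 sites, 12 of 731 w sites (1.64%) and 13 of 737 c sites (1.76%). Pool 3 contributed 274 sites, 96 of 1308 w sites (7.34%) and 178 of 1292 c sites (13.8%). A native element more active by 0.75 or more was found at 275 w sites (37.6%) and 38 c sites (5.16%) of pool 1, and at 514 w sites (39.3%) and 283 c sites (21.9%) of pool 3. Differences of -0.75 or less were thus rarer than differences of 0.75 or more in each pool and class. The RNA and plasmid libraries held 34801803 and 48330091 counts in pool 1, and 37267216 and 56246463 in pool 3.

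The motif sequences of the pool 1 sites on which the results below turn are shown with the number of the site, its mm9 position counted from 1 and the strand. Capitals mark bases that match the DR1 consensus AGGTCAAAGGTCA at its best position in the 16 bases, which was the last 13 bases at each of these 25 sites, and lower case marks flanking bases and mismatches.
w site 509, chr9:55101544-55101559 (+): tcaAaGcCAAAGGTgA
c site 509, chr8:10770103-10770118 (+): tcaAaGcCAAAGGTgA
w site 121, chr7:120182539-120182554 (+): agaAGGggAAgGGTCc
c site 121, chr7:89365936-89365951 (+): agaAGGggAAgGGTCc
c site 664, chr14:55605752-55605767 (-): acaAaGgCAAAGGcaA
w site 485, chr7:3560877-3560892 (+): tccAGGTCAAAGGTCt
w site 292, chr16:24874566-24874581 (+): tgtAGGTgAAAGGaCA
c site 401, chr16:88710669-88710684 (-): agtAGGTCAAAGGgCA
c site 575, chr19:46785074-46785089 (+): atgAGagCAAAGGcCA
c site 414, chr1:189940684-189940699 (-): gtcAGGgCAAAGtgCA
The first pair of numbers are motifs that met the threshold at both of their genomic places. Sites 485 and 401 carry motifs with 1 mismatch to the consensus, 292 has 2, 509, 575 and 414 have 3, and 121 and 664 have 4. Positions were not assigned to genes, since no mm9 annotation was used.

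The match to DR1 at these sites was close to that of all measured sites in the same pool and class. Mismatches to the consensus averaged 3.75 at the 12 w sites and 3.62 at the 13 c sites of pool 1, against 3.82 and 3.81 over all measured w and c sites. In pool 3 they averaged 3.88 at the 96 w sites and 4.33 at the 178 c sites, against 3.93 and 4.34 over all. Motifs with at most 2 mismatches were found at 2 of 12 w sites and 3 of 13 c sites of pool 1, against 88 of 731 and 90 of 737 over all. In pool 3 they made up 13.5% of the w sites and 6.18% of the c sites, against 11.3% and 6.58% over all. None of the 12 w or 13 c sites of pool 1 had a second half-site that matched AGGTCA in full, while 13.5% of all w sites and 13.7% of all c sites did. In pool 3 that share was 17.7% at the w sites described and 15.4% at all w sites, and 10.7% and 10.5% at c sites. The motif held a median of 8.5 G or C bases at the pool 1 w sites and 8 at all pool 1 w sites, and 8 in every other set.

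Among w sites of pool 1, the largest difference with interquartile ranges of the barcodes apart was at site 509. Its altered element ranged over 9 barcodes between -0.93 and 1.15 with a median of 0.70, and its native element over 9 barcodes between -1.20 and 0.84 with a median of -0.71. Native minus altered activity was -1.41, and it stayed between -1.42 and -1.36 whichever barcode was left out. The native element was thus of low activity, 694th of 731 native w elements, and the altered one 42nd.

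Sites 485 and 292 differed from site 509 in that both forms were active. At site 485 the altered element had a median of 2.71 (0.85 to 3.15, 9 barcodes) and the native element 1.42 (0.79 to 2.63, 8 barcodes), a difference of -1.29. At site 292 the altered element had a median of 2.91 (2.19 to 3.47, 9 barcodes) and the native element 1.90 (0.96 to 2.32, 9 barcodes), a difference of -1.01. Their altered elements ranked 6th and 4th among 731 altered w elements, and their native elements 100th and 57th. Barcode ranges of the forms overlapped at both sites, by a small margin at site 292.

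Of the 12 w sites, 5 were above 0 in both forms, 3 were above 0 only when altered, and 4 were at or below 0 in both. Site 600 had altered activity of 1.56 (0.73 to 2.25, 8 barcodes) and native activity of 0.33 (-2.29 to 1.67, 6 barcodes), where the median plasmid count over all native barcodes was 33.0. Site 102 had 1.04 altered and 0.12 native, and site 499 had -0.09 altered and -0.99 native, from 7 and 6 barcodes. Site 668, with the lowest difference of the class (-1.57), had 8 altered and 5 native barcodes whose interquartile ranges overlapped, and the difference came to between -1.71 and -0.81 with 1 barcode left out. The remaining w sites were 171 (-1.04), 670 (-0.86), 727 (-0.83) and 463 (-0.78). The threshold ran between site 121 (-0.768, inside) and site 664 (-0.749, outside).

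Among c sites of pool 1 the altered elements included the most active of the class, on the same values that chose the sites. Site 575 ranked 1st, site 509 2nd and site 664 3rd of 737 altered c elements, and site 401 ranked 6th. The altered element of site 575 had a median of 1.38 (0.14 to 1.73, 9 barcodes) and its native element -0.08 (-1.36 to 0.58, 9 barcodes), a difference of -1.46. At site 401 the altered element had 0.63 (-0.40 to 1.19) and the native element -0.62 (-2.42 to 0.21), a difference of -1.25 over 9 barcodes each. Site 664 had the lowest difference, -1.92. It was the 1 c site at which every altered barcode (0.23 to 1.54, 8 barcodes) lay above every native one (-1.92 to -0.04, 5 barcodes). Full separation in that direction was seen at 0.136% of c sites and at 0% of w sites of pool 1. Sites with every native barcode above every altered one were not counted.

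Of the 13 c sites of pool 1, 8 were above 0 when altered and below 0 when native, 5 were at or below 0 in both forms, and 0 were above 0 in both. Site 121 had the lowest native activity of all 737 c elements, -1.77 (-2.32 to -0.29, 8 barcodes), and an altered activity of -0.39 (-1.35 to 0.23, 8 barcodes). Sites 197 and 414 had altered activities of 0.22 and 0.28 and native activities of -1.0 and -0.94, a difference of -1.22 at both. The remaining c sites were 486 (-0.96), 694 (-0.93), 427 (-0.90), 331 (-0.87) and 264 (-0.78). The threshold ran between site 483 (-0.762, inside, 6 altered and 5 native barcodes) and site 601 (-0.741, outside).

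PPARγ binding, which the choice of sites did not use, was higher on the native element about as often at these sites as at all sites. Binding was log2 of ChIP over input counts, scaled to library totals of 1987761 and 1381624 counts, and the table used held counts for both forms at 12 of the 25 sites, w site 509 and c site 664 not among them. Native minus altered binding had a median of 0.51 over these 12 sites, with the native form higher at 9 of 12, against a median of 0.36 over all 944 sites, with the native form higher at 68.6%. A difference of 0.75 or more was found at 5 of the 12 sites, where 29.3% of all sites had one, and one of -0.75 or less at 0 of 12, where 4.56% did. By class, the medians were 0.51 at 6 w sites, where 2 differed by 0.75 or more (33.3% of all w sites), and 0.50 at 6 c sites, where 3 did (24.0%), against 0.44 over 540 w sites and 0.24 over 404 c sites. Differences of -0.75 or less were found at 2.41% of all w and 7.43% of all c sites. Intervals below are 95% counting intervals from the 4 counts of a site, which cover counting error only, since each library was made once.

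The sites with the strongest motif-dependent binding included those with near-consensus motifs printed above. At c site 401 the altered element had 443 ChIP and 301 input counts and the native element 2330 and 239, which gave binding of 0.03 altered and 2.76 native, a difference of 2.72 (2.44 to 3.01). At w site 485 binding was 0.91 altered and 2.22 native, a difference of 1.30 (1.03 to 1.58). At w site 292 it was -0.78 altered and 0.40 native, a difference of 1.19 (1.06 to 1.31). At these sites the form with more PPARγ on the plasmid was the form with less reporter RNA. The lower RNA of the native form was set by the choice of sites, and these sites were named for their high binding differences. Binding was higher on the native form at 68.6% of all 944 sites, so a link between binding and lower RNA was not tested.

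C sites 509 and 575, with motifs of 3 mismatches, also had more PPARγ on the native form. Binding at c site 509 was -0.54 altered and 0.44 native, a difference of 0.98 (0.74 to 1.22), and at c site 575 -0.60 and 0.28, a difference of 0.88 (0.70 to 1.06). The 3 lowest binding differences were at w site 121 (-0.63, interval -1.04 to -0.22), c site 414 (-0.61, -0.95 to -0.27) and c site 694 (-0.43, -0.59 to -0.27), where the altered form had more of both binding and activity. Of the remaining sites, the interval excluded 0 at w sites 668 (0.68) and 102 (0.35), and included it at w site 670 (0.22) and c site 121 (0.12). The sites thus held native elements with more PPARγ than their altered form and native elements with less.

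The partner site with the same 16 bases showed whether a motif went with lower native activity in other surroundings. Partners are other elements with other barcodes in the same libraries. For the 12 w sites, 11 c partners could be measured, and their native minus altered activity had a median of 0.13, with the native form higher at 7 (63.6%) and a difference of -0.75 or less at 2. Over the c sites of all 720 pairs the median was 0.08, the native form was higher at 59.0%, and 1.81% were at -0.75 or less. For the 13 c sites, the w partners had a median of 0.34, with the native form higher at 9 (69.2%) and a difference of -0.75 or less at 2. Over the w sites of all pairs the median was 0.52, the native form was higher at 83.5%, and 1.53% were at -0.75 or less. At 20 of the 24 partners the difference thus did not reach -0.75. The rest were the w and c sites of numbers 509 and 121, each counted as the partner of the other. They were themselves among the chosen sites.

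Several partners differed in the opposite direction. C site 486 had altered activity of -0.57 and native activity of -1.53, while w site 486 had -0.21 altered and 1.86 native, a difference of 2.07. C site 414 had a difference of -1.22 and w site 414 one of 1.18, from -0.97 altered (-2.11 to -0.29) and 0.20 native (-0.27 to 0.91). C site 331 had -0.87 and w site 331 had 1.29. C site 401 had -1.25 and w site 401 had 0.74. W site 292, at -1.01, had a c partner at 0.59, whose native element was bound more than its altered one by 1.62 (1.28 to 1.96). The difference between the surroundings was not tested.

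Motifs 509 and 121 met the threshold in both surroundings, as 2 of 720 pairs did (0.278%). C site 509 had altered activity of 1.01 (-0.32 to 1.71, 9 barcodes) and native activity of -0.19 (-2.00 to 0.48, 9 barcodes), a difference of -1.20 beside the -1.41 at w site 509. W site 121 had altered activity of 1.62 (0.22 to 2.87) and native activity of 0.85 (-1.47 to 2.19), a difference of -0.77 from 9 barcodes each beside the -1.38 at c site 121. With counts summed over barcodes, c site 121 had -0.39 and w site 121 had -0.72, so motif 121 met the threshold in neither, while site 509 met it in both. Motif 664 came next, with -1.92 at the c site and -0.75 at the w site, which fell just outside the threshold. In number 121 the w elements were the more active in both forms.

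Site 509 was the 1 site of the 299 that was measured again barcode by barcode in other libraries, among the 25 sites of pools 2 and 4. The altered form there is named mut. In pool 2 the mut element ranged over 20 barcodes between -2.19 and -0.28 with a median of -1.17, and the native element over 20 barcodes between -5.16 and -1.09 with a median of -2.66. The difference of the medians was -1.49 (permutation p = 1.00e-05 for the difference of barcode means, the smallest that 100000 permutations give, adjusted p = 2.50e-05 over 25 sites, 2-sided). The pool 4 table has a column per barcode and was read so, although the submission describes its counts as summed. In pool 4 the mut element had a median of -0.31 (-2.71 to 0.87, 13 barcodes) and the native element -1.32 (-3.86 to 0.01, 13 barcodes), a difference of -1.01 (permutation p = 0.00278, adjusted p = 0.00535). Activity levels depend on the library totals of a pool and are not compared between pools.

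Native activity was lower than that of mut, at an adjusted permutation p under 0.05, at 1 of 25 sites in pool 2 (4.00%) and 1 of 25 in pool 4 (4.00%), which was site 509 in both. It was higher at 20 sites (80.0%) and 17 sites (68.0%). These tests cover the spread between barcodes and not between cultures. When the 509 motif was placed in the 24 other sites of pool 2, with the first number of the name read as the surroundings, it was below the mean of all motifs in 21 of them in the bound0 series (median -1.02) and in 23 in the bound5 series (median -1.42). On the mean over surroundings it ranked 2nd and 1st from the lowest of the 25 motifs. Against the mut form of the same surroundings it was lower in 9 of 24 in the bound0 series (median 0.42) and in 17 of 24 in the bound5 series (median -0.30). In the surroundings of site 509 itself the median of the other 24 motifs was also below the mut form. It was -2.37 in the bound0 series and -2.46 in the bound5 series, with the 509 motif at -2.66 and -2.77, against -1.17 for mut. Of these other motifs, 20 in the bound0 series and 23 in the bound5 series were above the 509 motif.

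Pool 5, in which elements of 245 sites were altered at named motifs of several factors, held 3 of the w sites. At site 485 the element altered at a motif named pparg, at position 87, had an activity of 0.52 from 7672 RNA and 6075 plasmid counts. The wt element had 0.00 from 14890 and 16913 counts. Wt minus altered activity was -0.52 (counting interval -0.58 to -0.46), the same direction as in pool 1. Among 396 alterations named ppar, pparg or rxr in pool 5, 12.4% had a difference below 0, 3.79% one of -0.5 or less, and the median was 0.87.

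The other alterations of site 485 went the other way. The 4 elements altered at motifs named ap2, ctf1, nf1 and tlx1 had wt minus altered differences between 1.08 and 1.24, of which nf1 and tlx1 at position 55 shared their counts. The control alteration of site 485, named atf3, had a difference of 0.37 (0.30 to 0.43), so a control also moved this element by more than counting error. At site 121 the ppar alteration had an activity of -1.74 and the wt element -1.53, a wt minus altered difference of 0.21 (0.12 to 0.31). The rxr alteration of that site also had a difference of 0.21 (0.09 to 0.32). The 6 control alterations of site 121 had differences between -0.12 and 0.12. The controls named pparg and rxr had 0.12 (0.00 to 0.25), an interval that overlaps that of the ppar alteration. These controls shared their counts, as did those named couptf and jdp2. At site 292 no ppar, pparg or rxr alteration was measured, and all 7 alterations of other motifs were below wt, by a median of 0.95. Of these, ctf1 and tlx1 at position 41 shared their counts. Whether the positions named in pool 5 fall on the 16 bases altered in pool 1 is not known from the names.

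In pool 3 the 274 sites rested on fewer and less covered barcodes than the sites of the pool as a whole. The w sites had a median of 9 altered and 10.5 native barcodes, against 13 and 13 over all w sites, and median plasmid counts of 77.0 and 97.0 against 289 and 468. The c sites had 10 and 11 barcodes, against 12 and 13, with plasmid counts of 104 in both forms against 230 and 392. At least 1 native barcode with 0 RNA counts was present at 64.6% of the w sites and 73.0% of the c sites, against 25.8% and 38.9% over all. For altered barcodes these shares were 57.3% and 55.1%, against 41.1% and 48.7%. With such barcodes left out, 65 of the 96 w sites (83 still measured) and 112 of the 178 c sites (161 still measured) stayed at -0.75 or less, and 5 and 16 came to lie above 0. In pool 1, where all 12 w and 13 c sites stayed, a barcode with 0 RNA counts was present in 1 native element of the 25 sites and in no altered one.

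The spread over barcodes was also wider than over all sites. Its median SD was 2.00 altered and 2.03 native at the w sites of pool 3, against 1.56 and 1.19 over all, and 1.92 and 2.14 at the c sites, against 1.74 and 1.48. In pool 1 it was 0.62 altered and 1.00 native at w sites, against 0.63 and 0.65 over all, and 0.60 and 0.84 at c sites, against 0.62 and 0.65, so the native spread was the wider one there too. The altered interquartile range lay wholly above the native one at 17 of 96 w sites and 21 of 178 c sites of pool 3, and at 8 of 12 and 8 of 13 in pool 1. Over all sites, 1.83% and 1.93% of w and c sites in pool 3 and 1.50% and 3.39% in pool 1 had such separation. The sites were chosen on these same barcodes, so a higher share among them follows in part from the choice. With each barcode left out in turn the difference remained at -0.75 or less at 60 of 96 and 94 of 178 sites in pool 3, and at 6 of 12 and 8 of 13 in pool 1.

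The sites of pool 3 with the best barcode support are shown with their motif sequences, in the same notation. They were picked after their values were seen, as sites with separate interquartile ranges and no barcode at 0 RNA counts, which left 5 w and 4 c sites of the 274. Of these, w sites 1098, 675 and 365 and c sites 1005 and 568 stayed at -0.75 or less under all 7 alternatives to the value, and w sites 1413 and 1066 and c sites 672 and 357 did not.
w site 1098, chr6:3128374-3128389 (+): tgtAGGcCAAAGtggA
w site 675, chr15:34272888-34272903 (-): aatgaGggAgAGtgCA
w site 1413, chr9:50643412-50643427 (-): gctAGGTCAgAaGTCt
w site 365, chr2:132702983-132702998 (+): gtctttaCAAAGGTCA
w site 1066, chr5:130359165-130359180 (+): ctgActTCAAAGGcCA
c site 1005, chr9:49225229-49225244 (-): agagaGgCAtAGGcCA
c site 672, chr1:3782997-3783012 (-): agaAGGaCAAAGGgCA
c site 568, chr16:20941638-20941653 (-): agaAGGcCAgAGacCA
c site 357, chr2:80661186-80661201 (-): agtgGGggggAGGgtA
The motif of site 365 has a perfect second half-site and 4 mismatches, all in the first, while those of sites 675 and 357 have 7 mismatches in all.

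W site 1098 had the lowest difference of the w sites and well separated barcodes. Its altered element had a median activity of 4.36 (3.33 to 5.07, 15 barcodes, SD 0.45), the highest of 1308 altered w elements of pool 3. Its native element had 0.38 (-0.15 to 1.52, 14 barcodes, SD 0.49). Every altered barcode lay above every native one, which was the case at 0.0765% of w sites and 0% of c sites of pool 3. Sites separated in the opposite direction were not counted. The difference was -3.98, between -4.0 and -3.95 whichever barcode was left out, with median plasmid counts of 813 altered and 731 native.

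The other well supported sites had smaller differences. W site 675 had altered activity of 0.70 (-0.05 to 1.96, 15 barcodes) and native activity of -1.21 (-2.23 to 0.90, 15 barcodes), a difference of -1.91. W site 365 had 1.47 (0.77 to 2.08) altered and 0.23 (-1.01 to 1.65) native from 15 barcodes each, a difference of -1.24. W site 1066 had 1.99 (0.05 to 2.19) altered and 0.86 (-2.47 to 1.79) native from 13 each, a difference of -1.13. C site 1005 had 0.64 (-0.71 to 2.03, 10 barcodes) altered and -0.67 (-4.29 to 0.40, 14 barcodes) native, a difference of -1.32, and its altered element ranked 7th of 1292. Forms overlapped at these 4 sites. W site 1413 (-1.32) and c sites 672 (-1.26), 568 (-1.13) and 357 (-0.82) completed the set.

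Other low differences in pool 3 included c site 551 (-3.12, 14 altered and 13 native barcodes), whose interquartile ranges overlapped. Where the ranges were separate, the lowest differences otherwise came from elements with fewer barcodes in at least 1 form, some of them at 0 RNA counts. C site 1079 had the lowest, -4.54, from an altered median of 0.06 (-4.45 to 1.39, 8 barcodes) and a native median of -4.49 (-5.47 to 0.45, 10 barcodes), with 0 RNA counts at 4 native barcodes. C site 353 (-4.35) had 6 altered and 5 native barcodes, of which 1 and 3 had 0 RNA counts, and c site 668 (-3.67) had 5 of each. W site 1124 (-3.75) had 15 altered and 6 native barcodes, and w site 167 (-3.42) had 6 and 8. W site 569 (-2.77) had 14 and 10 barcodes, with an altered median of 1.41 and a native median of -1.36. W sites 731 (-2.91) and 717 (-2.47), and c sites 1293 (-2.94), 29 (-2.84) and 7 (-2.80), completed the 6 lowest of each class with separate interquartile ranges. These values moved with the processing: with counts summed over barcodes c site 1079 had -1.34, w site 1124 had -1.73 and w site 167 had -2.07, with a pseudocount of 5 c site 353 had -2.48, and with no plasmid minimum c site 1293 had -0.40 and no longer met the threshold. W site 569 stayed between -3.07 and -2.47 under all of them. The threshold ran between w sites 1429 (-0.763) and 389 (-0.741), and between c sites 1210 (-0.754) and 933 (-0.741).

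The levels behind the difference are set beside those of all sites of the same pool and class. They are not compared between pools, since 0 depends on the library totals of each pool. The sites were chosen on these same values, so their higher altered and lower native levels follow in part from the choice. Of the 96 w sites of pool 3, 71 were at or below 0 in both forms, 22 were above 0 only when altered, and 3 were above 0 in both, against 869, 32 and 109 of all 1308 w sites. Of the 178 c sites, 150 were at or below 0 in both, 28 were above 0 only when altered, and 0 were above 0 in both, against 1206, 33 and 9 of all 1292 c sites. Median activity was -0.44 altered and -1.75 native at the w sites, against -0.84 and -0.48 over all w sites, and -0.69 altered and -1.96 native at the c sites, against -1.02 and -0.92. In pool 1 it was 0.63 altered and -0.53 native at w sites, against -0.45 and 0.09, and 0.28 and -0.94 at c sites, against -0.62 and -0.56.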

How the data were processed

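MPRA tables of pools 1 to 4 are raw counts per barcode and those of pool 5 counts summed over the barcodes of an element, as deposited by the authors, per the file headers and the design text of the submission; pool 4, which that text gives as summed, has barcode columns and was read by them. The ChIP table of pool 1 holds raw counts per element, per the file headers. The submitters' processing notes name mm9 and, for ChIP, BWA 0.7.12 and, for barcode maps of pools 5 to 7, Bowtie2 2.1.0; the MPRA counter is not given in the sources used here. The members and lists were chosen with earlier results of these data known.

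From these counts, activity and binding were computed in Python 3.11.15 with numpy 2.4.6 and pandas 2.3.3. Pool 5 elements needed 50 plasmid counts, and the lowest input count was 101. Mismatches were counted on both strands at every offset. Site 509 was tested in pools 2 and 4 by 2-sided permutation of barcodes with Benjamini-Hochberg adjustment over 25 sites. Named sites are, per pool and class, the 6 lowest differences with separate interquartile ranges, those beside the threshold, those in other pools, the 3 highest and 3 lowest binding differences, and partners. Other named sites (the remaining members of pool 1 and the well supported set of pool 3) were picked after their values were seen. The rule and the permutation test were tried on simulated data. The simulated barcode spread, before counting noise, was below the SDs of pool 3, and the simulated shifts were larger than the threshold. The simulation therefore does not show how the rule behaves at the spread of pool 3. PCR reads are not independent molecules, so intervals cover counting error only. Sequence of the chromosome 18 site is not printed.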

Additional observations from a re-analysis of the deposited data

How the results depend on the processing

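The number of sites at -0.75 or less stayed within 1.5 times of that reported under most alternatives, and it fell where more coverage was required. With 8 barcodes in each form it was 6 w (0.979% of those measured) and 8 c sites (1.30%) in pool 1 and 59 w sites (5.28%) in pool 3. With a plasmid minimum of 100 it was 62 w (5.50%) and 98 c sites (9.56%) in pool 3, and with 12 barcodes in each form, a setting chosen after seeing the data, 18 w (2.46%) and 41 c sites (6.09%). Fewer sites were measured under these settings, and the share at -0.75 or less was also lower than reported. Which sites met the threshold moved more than their number. With counts summed over barcodes, 6 of 12 w and 6 of 13 c sites of pool 1 and 39 of 96 and 69 of 178 of pool 3 were still at -0.75 or less, and 1, 1, 16 and 33 of the sites lay above 0. In pool 3, 11 w and 13 c sites lay above 0 with the mean over barcodes, and 7 and 8 with no plasmid minimum. Under all 7 alternatives to the value, 4 w (509, 485, 292, 102) and 4 c sites (575, 401, 414, 509) of pool 1 were, and 14 and 24 in pool 3, w site 1098 among them. Of the sites named by rule, c site 483 of pool 1 had 0.86 with no plasmid minimum, and c site 1210 of pool 3 had 0.02 with summed counts. C site 664 of pool 1 had no value with a minimum of 100 and -1.17 with none. At 6 of the 30 named sites, 1 barcode decided the threshold, among them w sites 102, 499 and 121 of pool 1. The binding median (0.51 to 0.52), the partner median (0.00 to 0.22) and site 509 in pools 2 (-1.50 to -1.43) and 4 (-1.01 to -0.99) kept their sign, or came to 0, under the alternatives run. No paired analysis was possible because each group is a single library.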

Other observations

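Some sites lay close to others in the genome, so their elements may overlap. Within 150 bases of each other were 2 of the described sites, w sites 1066 (-1.13) and 1467 (-1.0) of pool 3, 51 bases apart on chromosome 5. The difference at site 1467 came from 6 altered and 8 native barcodes, with 0 RNA counts at 3 of the native ones, and lay between -3.18 and 1.18 when a barcode was left out. The other measured neighbours lay above the threshold, among them 4 with native activity higher by 0.75 or more, named after their values were seen. The rest lay between -0.07 and 0.72. Native activity was higher by 0.75 or more at 37.6% of all w sites of pool 1 and 39.3% of pool 3, so such neighbours are not unusual. W site 600 of pool 1 (-1.24) lay 75 bases from w site 514 of pool 3 (2.63), w site 239 of pool 3 (-1.28) 110 bases from w site 1372 (2.94), w site 463 of pool 1 (-0.78) 133 bases from w site 595 of pool 3 (1.02), and w site 121 of pool 1 (-0.77) 68 bases from w site 72 (0.99).

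The 299 described sites of both pools held 292 distinct 16-base motifs, of which 7 were carried by 2 or more described sites. Among these 7 are the motifs of numbers 509 and 121, which w and c sites of pool 1 share by design. Sharing over all measured sites, and sites with these motifs that did not meet the threshold, were not counted. Whether such motifs recur with lower native activity was therefore not tested. Among the described c sites of pool 3, a few carried a 16-base motif in common. Examples are tgtAaGgCAAAGGaCA at c sites 931 (-2.43) and 1094 (-1.49), agtgGGggggAGGgtA at 832 (-1.51) and 357 (-0.82), and actgaaggAAAGGcCA at 552 (-0.85) and 1377 (-0.81). Within the 509 element in pool 4, none of 28 windows named comp10 and none of 26 named swap20 was more active than wt by 0.75 or more, and the highest were 0.33 at position 10 and 0.18 at position 5. The mut form was above wt by more than any of these windows, with medians of -0.31 in mut and -1.32 in wt. Shares over the windows of the other sites of pool 4 are not given here, nor which windows cover the 16 bases. Whether the windows differ from the mut form in what they alter was therefore not tested.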
